A study of Mus musculus with 6 samples.

Results

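The nuclear genes for the subunits of the respiratory chain and of the ATP synthase, complexes I to V of the mitochondrial inner membrane, were followed in the murine breast cancer cell line Py2T. They were chosen by gene symbol (protein-coding genes named Ndufa, Ndufb, Ndufc, Ndufs, Ndufv, Uqcr, Cox4 to Cox8 and Atp5, with Sdha to Sdhd and Cyc1, less the assembly factors named Ndufaf and 1 other gene), and 85 of the 24454 rows of the table met that rule. Of these, 36 belong to complex I, 4 to complex II, 8 to complex III, 20 to complex IV and 17 to complex V. Ndufb1, Ndufb4b and Ndufb4c were not analysed here. Py2T is a cultured epithelial line from a tumour of the mammary gland. RNA was sequenced from C40 cells, given 40 µM H2O2 each day over 4 months, from I60 cells, given 60 µM over the same time, and from PBS cells, which had 0 µM H2O2 and are called untreated in the protocol. Each group had 2 libraries, named biological duplicates by the submitters. Whether the duplicates were kept apart over the 4 months is not stated in any source at hand, so p-values measure the spread between these libraries, which may be technical. Drift of a line over the 4 months and an effect of H2O2 cannot be told apart.

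The respiratory chain passes electrons from NADH (through complex I) or succinate (through complex II) to ubiquinone, on through complex III and cytochrome c, and to oxygen at complex IV. Complexes I, III and IV pump protons across the inner membrane, and complex V, the ATP synthase, lets them back and makes ATP. Complex II pumps none, and all of its subunits are nuclear-encoded, while the other complexes also hold subunits made from mitochondrial DNA. Electrons that leak to oxygen, mainly at complexes I and III, give superoxide, which is turned into H2O2. No row of the table was mitochondrially encoded (0 rows), so the values below concern the nuclear subunits alone.

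The libraries held 48113692 to 60260520 reads, so that 1 read was worth 0.0166 to 0.0208 CPM (a gene's reads per 1000000 reads of its library). Values in CPM are shares of a library's RNA, and RNA per cell was not measured. In such bulk RNA, fewer cells with a transcript and less of it per cell cannot be told apart. The summed level of 7 epithelial markers was 3579 to 3810 CPM in C40 and 3091 to 3154 CPM in I60, against 6994 to 7473 CPM in PBS, and 5 of the 7 were called lower in each line against PBS. Krt8 and Krt18 did not pass in either. In I60 they made up most of the sum, at 1707 and 1574 CPM for Krt8 and 1443 and 1513 CPM for Krt18. Cdh1 had 529 and 537 CPM in PBS, 59.7 and 87.8 CPM in C40, and 0.187 and 0.129 CPM in I60. Krt7 had 3115 and 3024 CPM in PBS, 792 and 863 CPM in C40, and 3.28 and 3.04 CPM in I60. In I60 against C40, 5 of the 7 were called lower as well. Fibroblast markers summed to 160 to 687 CPM in C40 and 413 to 455 CPM in I60, against 0.232 to 0.350 CPM in PBS, led by Col3a1 and Pdgfrb, while Lum, Fap and Thy1 were at 0 reads in every library. Of 5 immune markers, 1 passed the filter on low values (Cd68, called higher in I60, at 16.2 and 28.0 CPM against 4.29 and 5.00 CPM in PBS); Ptprc, the defining leukocyte marker, stayed at or below 0.350 CPM in every library. Endothelial and adipocyte markers summed to less than 1 CPM in each library. The part of these differences in the results below was not tested.

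Near-identical copies bear on which members can be read in such a table, as many short subunit genes have processed pseudogenes (copies of the spliced transcript elsewhere in the genome). For each member, the windows of 81 bases (the read length) of 1 principal transcript were compared with the annotated transcripts of genes elsewhere in the genome. A window counted as shared only where all 81 bases were the same, on either strand. Copies that differ at some bases are thus counted in part or missed. In 61 members no window was shared with such a gene (0), and in 24 some were. More than 30% of the windows were shared in 8 members, and 5 of these stood below 5 CPM in PBS: Atp5g2 (100%), Atp5l (62.9%), Cox7c (49.8%), Ndufb4 (34.8%) and Ndufs5 (30.1%). The other 3 were Atp5g1 (58.9%), Atp5h (51.7%) and Atp5md (34.6%). The sources used here do not say how the authors' counting treated reads that fit several places, so the levels of these 8 genes are uncertain. Windows were also shared with genes that overlap a member at its own place, on either strand, in 17 members, 11 of them among the 61. The share was over 10% in 10 members: Atp5o (32.8%), Ndufb6 (30.6%), Ndufa13 (25.2%), Uqcrc2 (23.5%), Cox5a (19.8%), Ndufb9 (19.6%), Ndufb2 (18.9%), Ndufb5 (13.6%), Atp5pb (11.8%) and Atp5l (11.4%). The overlapping genes of Atp5o include another annotated entry of the same name, so its share with other genes may be smaller. No source at hand says how reads in such overlaps were counted, so these levels are uncertain to that extent.

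Cox7c and Ndufs5 are examples. Cox7c (chr13:86044798-86046795 in mm10), a small subunit of complex IV that cells in general carry, stood at 0.560 and 0.481 CPM in PBS, 0.624 and 0.478 CPM in C40, and 0.749 and 0.608 CPM in I60. The row of its processed pseudogene Gm12338 on chromosome 11 held 33.4 and 36.7 CPM in PBS, 52.2 and 39.0 CPM in C40, and 55.3 and 48.4 CPM in I60. Ndufs5, an accessory subunit of complex I (chr4:123712710-123718186), stood at 0.0175 and 0.0166 CPM in PBS, 0.0416 and 0.0920 CPM in C40, and 0.0187 and 0.0553 CPM in I60. The row of Ndufs5-ps, its processed pseudogene on chromosome 16, held 19.7 and 21.5 CPM in PBS, 22.8 and 23.1 CPM in C40, and 27.8 and 26.2 CPM in I60. In both pairs the copy stood above the gene in all 6 libraries, and the part of shared sequence in that was not tested. The whole coding sequence of Cox7c (192 bases, with 0 differences in Gm12338) and the first 200 of the 321 coding bases of Ndufs5 are printed to show how alike gene and copy are; capitals mark the only 2 bases at which Ndufs5 and its copy differ over 319 aligned coding bases (99.4% identity). The sequences are those of the GENCODE M21 transcripts.
Cox7c, equal to Gm12338: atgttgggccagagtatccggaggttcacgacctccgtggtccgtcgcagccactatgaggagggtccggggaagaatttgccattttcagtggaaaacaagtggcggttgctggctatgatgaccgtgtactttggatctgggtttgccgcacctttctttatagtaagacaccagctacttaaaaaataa
Ndufs5: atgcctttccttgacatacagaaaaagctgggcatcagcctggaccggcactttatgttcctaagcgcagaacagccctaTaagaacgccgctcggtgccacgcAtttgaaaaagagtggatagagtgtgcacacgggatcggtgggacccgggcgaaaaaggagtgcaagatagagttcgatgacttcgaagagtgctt
Ndufs5-ps: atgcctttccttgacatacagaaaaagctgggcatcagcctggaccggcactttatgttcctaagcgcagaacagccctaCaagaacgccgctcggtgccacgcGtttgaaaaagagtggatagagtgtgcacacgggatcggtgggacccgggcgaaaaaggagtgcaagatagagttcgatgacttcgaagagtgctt
Cox7c and Ndufs5 were too low to be tested. Gm12338 and Ndufs5-ps were higher in both lines than in PBS without overlap, by log2 fold changes of 0.36 and 0.16 in C40 and 0.56 and 0.38 in I60, and neither passed the test (limma adjusted p = 0.265 and 0.603 in C40, 0.0964 and 0.192 in I60). Atp5l, an ATP synthase subunit that shares windows with several pseudogenes, stood at 0.297 and 0.365 CPM in PBS, 0.374 and 0.239 CPM in C40, and 0.187 and 0.313 CPM in I60 and was not tested either.

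**Figure D1:**
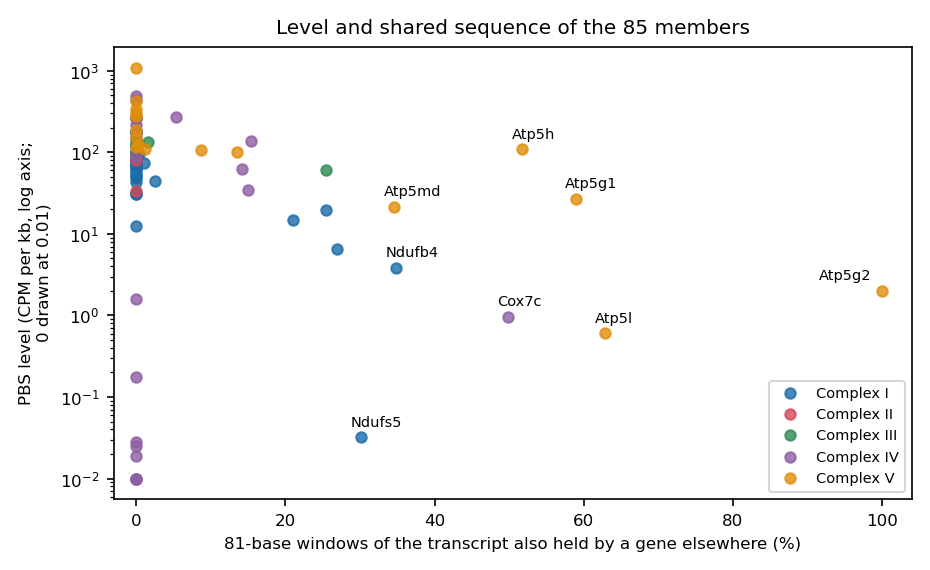
Level of the 85 members in PBS (mean of 2 libraries, in CPM per kilobase of transcript, log axis, values of 0 drawn at 0.01) against the share of their 81-base windows that an annotated gene elsewhere in the genome also holds (%). Each point is a member, coloured by complex, and the 8 members over 30% are named. Of those 8, Ndufs5, Atp5l, Cox7c, Atp5g2 and Ndufb4 lie below 5 CPM, and the unnamed points near the bottom left are subunit isoforms of complex IV with 0 shared windows.

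The remaining low members were isoforms known from other tissues. Complex IV has pairs of subunits of which one form is general and the other belongs to muscle, lung, testis or hypoxic cells. Cox4i2, Cox6a2, Cox6b2, Cox7a1, Cox7b2, Cox8b, Cox8c and Ndufa4l2 shared 0 windows with genes elsewhere and none reached 1 CPM in 2 libraries. Cox7b2, Cox8b and Cox8c were at 0 reads in all 6 libraries, and Cox7a1, the heart and muscle form, lay between 0.478 and 0.769 CPM. Cox6a2 stood at 2.12 CPM in C40 replicate 2 and at 0.203 CPM or less in the other libraries. Cox4i2 and Ndufa4l2, both known as hypoxia-inducible, lay at or below 0.183 and 0.092 CPM. Per length, the general forms Cox4i1, Cox6a1, Cox6b1, Cox7a2, Cox8a and Ndufa4 lay between 179 and 488 CPM per kb of transcript in PBS, against 1.59 for Cox7a1, the highest of these 8. Of the 3 genes for subunit c of the ATP synthase rotor, which give the same mature protein, Atp5g3 was highest at 345 CPM per kb of transcript in PBS, against 27.0 for Atp5g1 and 2.00 for Atp5g2, both of which are uncertain as above. All 11 members that were not tested (Ndufs5, Cox7c, Atp5l and these 8 isoforms) stay out of the counts that follow.

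Tests were run with limma on log2(CPM + 0.5) over the 11524 genes that reached 1 CPM in 2 or more libraries, 74 of them members, with p-values adjusted over all genes. A member is said to have risen or fallen where its adjusted p was below 0.05. Fold changes are on the log2(CPM + 0.5) scale, which understates those of low genes.

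In C40 against PBS, 7 of the 74 tested members rose, 0 fell and 67 did not pass. The 7 were Cox8a, Ndufa1, Atp5a1, Ndufv1, Cox5b, Ndufb8 and Ndufs8, 9.46% of the members, where 11.2% of all genes tested were called higher and 9.02% lower. The share of members called higher was thus near that of all genes. In I60 against PBS, 18 members rose, 0 fell and 56 did not pass. They made up 24.3% of the members, where 13.9% of all genes were called higher and 13.1% lower. The median log2 fold change of the 74 members was 0.27 in C40 and 0.44 in I60, beside -0.024 and -0.002 over all genes tested. Set side by side by library, in C40 both libraries stood above both PBS libraries for 42 members (56.8%) and below them for 6 (8.11%), where 30.9% and 31.8% of all genes did. In I60, 54 members (73.0%) stood above PBS without overlap and 8 (10.8%) below, where 35.5% and 35.2% of all genes did.

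Levels summed over the 85 members were 10160.2 ± 449.5 CPM in PBS, 13189 ± 986 CPM in C40 and 14138 ± 313 CPM in I60 (SD, n = 2 each). By complex the sums were 2168 ± 58.7 CPM in PBS, 2682 ± 279.6 CPM in C40 and 2943 ± 112 CPM in I60 for complex I, and 1143 ± 69.0 CPM in PBS, 1482 ± 20.2 CPM in C40 and 1670.4 ± 107 CPM in I60 for complex III. Complex IV summed to 1551 ± 61.5 CPM in PBS, 1975 ± 239 CPM in C40 and 2144 ± 15.4 CPM in I60, and complex V to 4635 ± 243 CPM in PBS, 6260.2 ± 354 CPM in C40 and 6745 ± 72.2 CPM in I60. These sums are led by the most abundant members, above all Atp5a1 and Atp5b in complex V. Complex II differed in its order: its sum was 663 ± 17.1 CPM in PBS, 790.0 ± 92.8 CPM in C40 and 636 ± 6.63 CPM in I60, so that I60 was not above PBS.

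**Figure D2:**
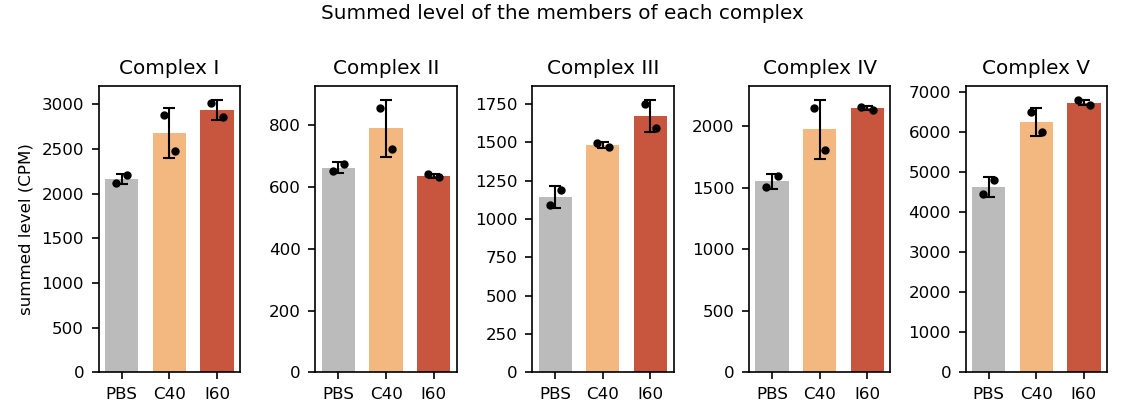
Summed level (CPM) of the members of each complex in PBS, C40 and I60 (0, 40 and 60 µM H2O2); bars are means of 2 libraries, error bars SD, points the libraries. In complexes I, III, IV and V both libraries of each line lie above both PBS libraries; in complex II the I60 libraries (641 and 631 CPM) lie below them (651 and 675 CPM).

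These calls rest on 2 libraries a group, and single libraries moved the counts. A fit that leaves out a library holds a single library of that group, so its spread comes from the other groups alone. In each fit that left out a PBS or an I60 library, a smaller share of members than of all genes was called higher in I60. In the fits without a C40 library, the members' share in I60 was above that of all genes. For C40, the members' share was below that of all genes in every such fit except that without C40 replicate 2. Without PBS replicate 1 or 2, 0 and 1 members were called higher in C40, and 1 and 4 in I60. Without C40 replicate 1, 5 were called higher and 3 lower in C40 (Atp5k, Ndufa4 and Ndufb3, the only lower calls in any of the 6 fits that leave out a library), and without C40 replicate 2, 9 were higher. Leaving out I60 replicate 1 or 2 gave 4 and 4 in C40, and 2 and 4 in I60. Without either of the C40 libraries, 32 members were called higher in I60. The C40 libraries differed among themselves: 65 of the 74 members were lower in replicate 2 than in replicate 1 (median log2 difference -0.21), against 48 in I60 (-0.06) and 20 in PBS (0.09). DESeq2 on the recovered reads called 12 members higher in C40 and 28 in I60, and edgeR 6 and 17. In C40 the 12 were 16.2% of the members, near the 15.7% of all genes that DESeq2 called higher. The 6 were 8.11%, below the 11.7% of all genes that edgeR called higher. In I60 the members' share was above that of all genes with both methods.

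**Figure D3:**
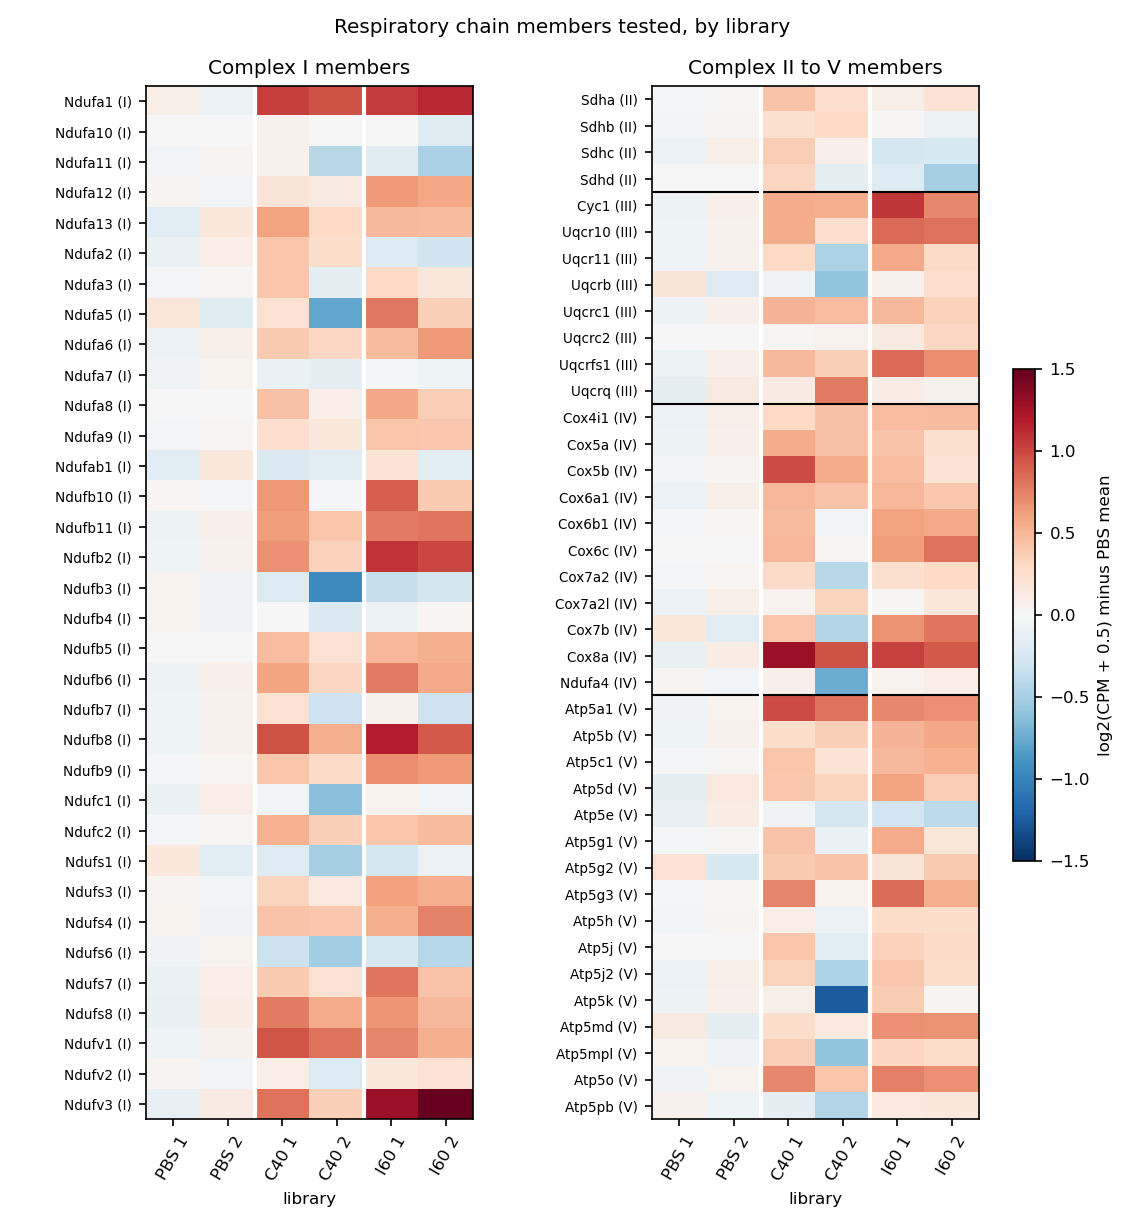
Level of 73 of the 74 tested members in the 6 libraries, as log2(CPM + 0.5) minus the mean of the PBS libraries (red above, blue below); the complex is given in brackets, and black lines part the complexes. Most members are red in both I60 libraries, C40 replicate 2 is paler or blue for many members that are red in C40 replicate 1, and the 4 rows of complex II are pale or blue in I60.

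Complex I takes electrons from NADH. Its peripheral arm holds the flavin and the iron-sulphur clusters that carry them to ubiquinone, and its membrane arm pumps protons. Of 35 tested subunits, 4 rose in C40 (Ndufa1, Ndufb8, Ndufs8 and Ndufv1), where 11.2% of all genes did. In I60 10 rose (among them Ndufa1, Ndufb2, Ndufb6, Ndufb8, Ndufb9, Ndufb11, Ndufs4, Ndufv1 and Ndufv3), where 13.9% of all genes did. None fell (0 in both, where 9.02% and 13.1% of all genes did), and the medians were 0.31 in C40 and 0.52 in I60. Ndufv1, the core subunit that binds NADH and flavin, stood at 130.3 and 143 CPM in PBS, 263 and 241 CPM in C40, and 227 and 198 CPM in I60. Both lines lay above PBS with no overlap, and I60 lay below C40 by a difference that did not pass (limma adjusted p = 0.439; C40 against PBS, log2 fold change 0.88, SE 0.16, limma adjusted p = 0.00917; I60 against PBS, log2 fold change 0.64, SE 0.16, limma adjusted p = 0.0249). Ndufv3, an accessory subunit beside it, stood at 18.3 and 21.7 CPM in PBS, 35.4 and 25.6 CPM in C40, and 49.2 and 59.1 CPM in I60. It had the largest rise of any member (log2 fold change 1.42, SE 0.24, limma adjusted p = 0.00491 in I60), while the C40 libraries, also above PBS, did not pass (log2 fold change 0.59, SE 0.24, limma adjusted p = 0.126). The difference between I60 and C40 in Ndufv3 missed the threshold as well (log2 fold change 0.83, SE 0.24, limma adjusted p = 0.0846), and passed with DESeq2 (adjusted p = 0.0174). Without C40 replicate 1, which leaves a single C40 library, the log2 fold change was 1.06.

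Ndufs8, a core subunit of the peripheral arm that carries iron-sulphur clusters, rose in C40 (116 and 100.0 CPM, against 62.9 and 73.0 CPM in PBS; log2 fold change 0.66, SE 0.17, limma adjusted p = 0.0388) and lay at 107 and 95.3 CPM in I60, just outside the threshold (limma adjusted p = 0.0504). Ndufs1, the largest iron-sulphur subunit, did not pass in either line. It stood at 181 and 145 CPM in PBS, 142 and 114 CPM in C40, and 135 and 152 CPM in I60, with both C40 libraries below both PBS libraries and I60 overlapping PBS (limma adjusted p = 0.248 in C40 and 0.54 in I60). Ndufv2 (-0.06 in C40 and 0.19 in I60), Ndufs3 (0.24 and 0.58) and Ndufs7 (0.31 and 0.61) are further nuclear core subunits, given here by their log2 fold changes, and did not pass. Ndufs4, an accessory subunit whose loss in mice is a model of Leigh syndrome, rose in I60 to 76.0 and 88.1 CPM, against 54.2 and 50.2 CPM in PBS (log2 fold change 0.64, SE 0.17, limma adjusted p = 0.0296). Ndufs6, also in the peripheral arm, lay below PBS without overlap in both lines (-0.42 in C40, -0.33 in I60; limma adjusted p = 0.155 and 0.226).

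Ndufa1, an accessory subunit needed to build the membrane arm, stood at 14.2 and 12.6 CPM in PBS, 28.0 and 26.4 CPM in C40, and 28.2 and 29.9 CPM in I60. Both lines held about the same level, above PBS without overlap (C40, log2 fold change 0.996, SE 0.20, limma adjusted p = 0.014; I60, log2 fold change 1.09, SE 0.20, limma adjusted p = 0.00721). Ndufb8, whose protein is often used to gauge assembled complex I, stood at 113 and 123 CPM in PBS, 229 and 172 CPM in C40, and 268 and 224 CPM in I60. The C40 replicates lay further apart than those of PBS, and both lines passed (C40, log2 fold change 0.75, SE 0.20, limma adjusted p = 0.0367; I60, log2 fold change 1.05, SE 0.20, limma adjusted p = 0.00768). Ndufb2 had 66.7 and 62.8 CPM in I60, against 29.9 and 32.6 CPM in PBS (log2 fold change 1.04, SE 0.19, limma adjusted p = 0.00764), and Ndufb11, encoded on the X chromosome like Ndufa1, had 117 and 118 CPM, against 64.0 and 71.5 CPM (log2 fold change 0.79, SE 0.17, limma adjusted p = 0.0123). Ndufb6 and Ndufb9 rose by 0.68 and 0.66 on the log2 scale in I60 (limma adjusted p = 0.0449 and 0.0184). Ndufb3, of the same arm, lay lower without overlap in both lines (-0.58 in C40, -0.31 in I60; limma adjusted p = 0.177 and 0.442), and Ndufb7, Ndufc1 and Ndufb4 lay between -0.33 and 0.01 on the log2 scale in both lines. Ndufa9, which sits where the arms meet, had 108 and 112 CPM in PBS, 131 and 123 CPM in C40, and 147 and 146 CPM in I60, above PBS without overlap in both lines and not called (0.20 and 0.41; limma adjusted p = 0.361 and 0.0821). The 31 subunits of complex I that did not pass in C40 ran between log2 fold changes of -0.58 and 0.59, and the 25 in I60 between -0.33 and 0.64.

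Of the calls in complex I, those of Ndufb8 and Ndufs8 in C40 were lost without any library but C40 replicate 2 (limma adjusted p up to 0.226 and 0.249), and those of Ndufa1 and Ndufv1 in C40 without PBS replicate 1 or 2 (up to 0.0986 and 0.0915). In I60, Ndufb6, Ndufb9, Ndufb11, Ndufs4 and Ndufv1 lost the call without any 1 of the PBS and I60 libraries (up to 0.234, 0.127, 0.105, 0.171 and 0.169). Ndufv3 lost it without PBS replicate 1 or I60 replicate 2 (up to 0.055), Ndufa1 without PBS replicate 2 or I60 replicate 2 (0.0654), Ndufb8 without PBS replicate 1 or I60 replicate 1 (0.0762), and Ndufb2 without PBS replicate 1 or either I60 library (0.0737). In C40, the call of Ndufs8 was also lost under edgeR and that of Ndufb8 with no filter on low values.

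Ndufa2 was singled out after its values were seen, because the lines lay on opposite sides of PBS. This accessory subunit of the peripheral arm had 52.3 and 60.0 CPM in PBS, 74.6 and 67.6 CPM in C40, and 48.4 and 45.3 CPM in I60. Both C40 libraries lay above PBS and both I60 libraries below it. The difference between I60 and C40 did not pass (log2 fold change -0.59, SE 0.17, limma adjusted p = 0.092), and passed with DESeq2 (adjusted p = 0.0306). Atp5pb, the stalk subunit b of complex V, was the only other tested member with such opposite positions, in the other direction (157 to 172 CPM in PBS, 121 to 149 CPM in C40 and 182 to 183 CPM in I60), and its difference did not pass either (limma adjusted p = 0.176).

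**Figure D4:**
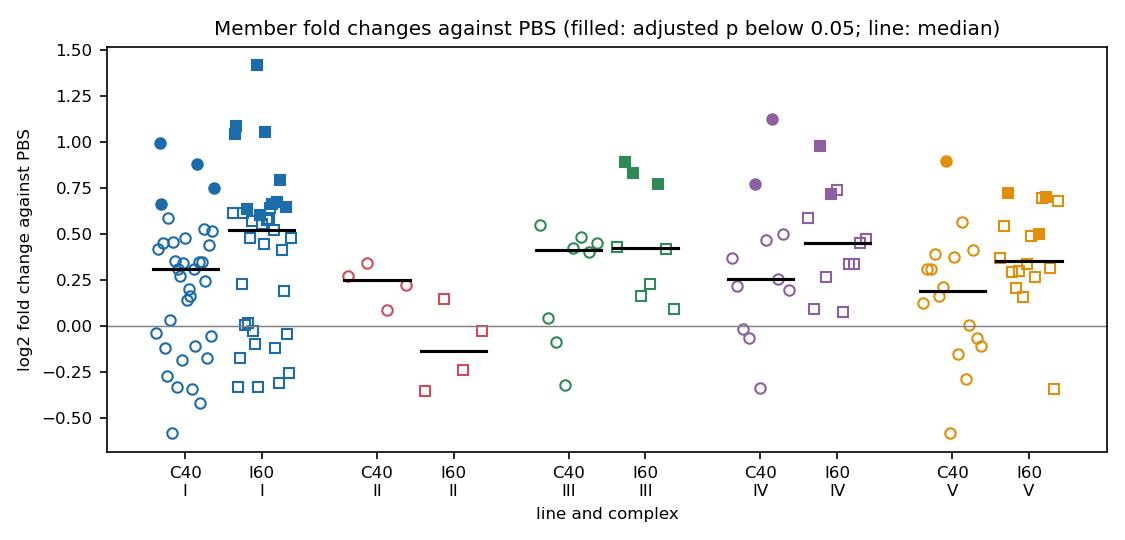
Log2 fold change of the 74 tested members against PBS in C40 (circles) and I60 (squares), by complex; filled symbols have a limma adjusted p below 0.05 and black lines are medians. In complexes I, III, IV and V the medians lie between 0.19 and 0.52, and in complex II at 0.25 in C40 and -0.14 in I60.

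Complex II, succinate dehydrogenase, links the citric acid cycle to the chain. Its 4 subunits are the flavin-carrying Sdha, the iron-sulphur subunit Sdhb and the membrane anchors Sdhc and Sdhd, and none passed in any comparison (0 of 4). Sdha stood at 278 and 285 CPM in PBS, 379 and 335 CPM in C40, and 300.2 and 324 CPM in I60, and Sdhb at 88.1 and 93.5 CPM in PBS, 108 and 112 CPM in C40, and 92.1 and 85.9 CPM in I60. Both were above PBS without overlap in C40, by 0.34 and 0.27 on the log2 scale (limma adjusted p = 0.158 and 0.252). The anchors had 99.1 and 112 CPM in PBS, 137 and 111 CPM in C40, and 88.2 and 90.3 CPM in I60 for Sdhc, and 186 and 184 CPM in PBS, 232 and 167 CPM in C40, and 160.2 and 131 CPM in I60 for Sdhd. Their C40 libraries overlapped those of PBS, while both I60 libraries lay below PBS (-0.24 and -0.35 on the log2 scale; limma adjusted p = 0.351 and 0.25). Between the lines, all 4 subunits were lower in I60 than in C40 without overlap, where 24.4% of all genes tested were, with log2 differences between -0.46 and -0.19 (median -0.37; limma adjusted p between 0.176 and 0.531). In complexes I, III, IV and V the medians of I60 against C40 were 0.20, 0.34, 0.10 and 0.22.

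Complex III passes electrons on from ubiquinol to cytochrome c. Of its 8 members, 0 passed in C40, where 11.2% of all genes were called higher. In I60 3 rose, Cyc1, Uqcrfs1 and Uqcr10, where 13.9% of all genes did. Both nuclear subunits that carry its redox centres were among them. Cyc1, cytochrome c1 (chr15:76343513-76346260), had 198 and 221 CPM in PBS, 309 and 305 CPM in C40, and 439 and 345 CPM in I60. The C40 replicates were nearly equal and lay above PBS without passing (log2 fold change 0.55, SE 0.17, limma adjusted p = 0.0662), and I60 passed (log2 fold change 0.89, SE 0.17, limma adjusted p = 0.00938). Uqcrfs1, the Rieske iron-sulphur protein, had 163 and 179 CPM in PBS, 240.3 and 219 CPM in C40, and 307 and 278 CPM in I60. The 3 groups did not overlap in either gene and stood in the order PBS, C40, I60, where I60 against C40 did not pass (limma adjusted p = 0.318 for Cyc1 and 0.253 for Uqcrfs1; log2 fold change 0.77, SE 0.15, limma adjusted p = 0.0105 for Uqcrfs1 in I60; log2 fold change 0.43, SE 0.15, limma adjusted p = 0.0971 in C40). Uqcr10, a small membrane subunit, had 143 and 139 CPM in I60, against 75.3 and 82.9 CPM in PBS (log2 fold change 0.83, SE 0.17, limma adjusted p = 0.0123). The core proteins Uqcrc1 and Uqcrc2 did not pass: Uqcrc1 had 277 and 309 CPM in PBS, 416 and 404 CPM in C40, and 409 and 373 CPM in I60, above PBS in both lines, and Uqcrc2 had 189 and 190.1 CPM in PBS, 194 and 197 CPM in C40, and 209 and 236 CPM in I60. Uqcrb, Uqcr11 and Uqcrq lay between -0.32 and 0.45 in C40 and between 0.09 and 0.43 in I60, as log2 fold changes. The I60 calls of Cyc1 and Uqcrfs1 were lost without PBS replicate 1 or 2 or I60 replicate 1 (limma adjusted p up to 0.0921 and 0.0974), and that of Uqcr10 without any 1 of the PBS and I60 libraries (up to 0.103).

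Complex IV, cytochrome c oxidase, reduces oxygen to water, and its nuclear subunits surround a catalytic core made in the mitochondrion. Of 11 tested members, 2 rose in C40 (Cox8a and Cox5b) and 2 in I60 (Cox8a and Cox6c), with medians of 0.26 and 0.45. Of all genes tested, 11.2% were called higher in C40 and 13.9% in I60. Cox8a, the general form of the smallest subunit (chr19:7215158-7217616), had 111 and 129 CPM in PBS, 294 and 232 CPM in C40, and 245 and 227 CPM in I60. Every library of both lines lay far above the PBS libraries, and C40 had the largest rise of any member in that line (C40, log2 fold change 1.12, SE 0.18, limma adjusted p = 0.00563; I60, log2 fold change 0.98, SE 0.18, limma adjusted p = 0.00736). Cox5b, a zinc-binding subunit on the matrix side, had 28.9 and 30.8 CPM in PBS, 59.4 and 44.2 CPM in C40, and 41.4 and 34.5 CPM in I60. It passed in C40 (log2 fold change 0.77, SE 0.22, limma adjusted p = 0.0491) and not in I60 (log2 fold change 0.34, SE 0.22, limma adjusted p = 0.299), and 15% of its windows are shared with other genes. Cox6c had 106 and 121 CPM in I60, against 68.4 and 69.1 CPM in PBS (log2 fold change 0.72, SE 0.20, limma adjusted p = 0.0407), with 15.4% of windows shared. The regulatory subunit Cox4i1 had 341 and 386 CPM in PBS, 447 and 494 CPM in C40, and 502 and 505 CPM in I60, and Cox5a had 168 and 186 CPM in PBS, 260.2 and 240.4 CPM in C40, and 238 and 208 CPM in I60. Both lay above PBS without overlap in both lines and did not pass (limma adjusted p = 0.137 and 0.0637 for Cox4i1 in C40 and I60, 0.0654 and 0.166 for Cox5a). Ndufa4, once counted with complex I and since found in complex IV, had 206 and 193 CPM in PBS, 209 and 119 CPM in C40, and 206 and 214 CPM in I60, with C40 replicate 2 apart from the other 5 libraries. The 9 members that did not pass in C40 ran between log2 fold changes of -0.34 and 0.50, and the 9 in I60 between 0.08 and 0.74. The C40 call of Cox8a was lost without PBS replicate 1 (limma adjusted p = 0.0656) and its I60 call without PBS replicate 1 or I60 replicate 1 (up to 0.0775). The call of Cox5b was lost without any library but C40 replicate 2 (up to 0.253), and that of Cox6c without any 1 of the PBS and I60 libraries (up to 0.207). Both were also lost with no filter on low values, and that of Cox5b with a pseudocount of 1.

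**Figure D5:**
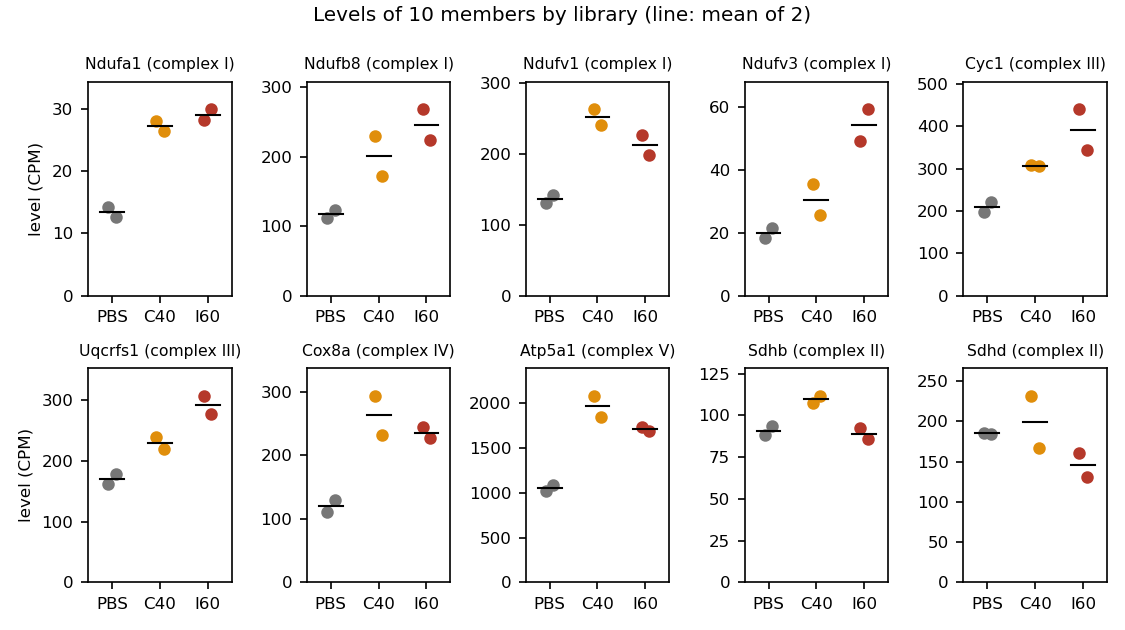
Level (CPM) of 10 members in each library of PBS, C40 and I60 (0, 40 and 60 µM H2O2); points are libraries and lines the mean of 2, each panel starting at 0. In Ndufa1, Ndufb8, Ndufv1, Ndufv3, Cyc1, Uqcrfs1, Cox8a and Atp5a1 every library of both lines lies above both PBS libraries; in Sdhb and Sdhd the I60 libraries lie below those of C40.

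Complex V makes ATP in a catalytic head of subunits alpha and beta, which a peripheral stalk holds still while a ring of subunit c in the membrane turns the central shaft of gamma, delta and epsilon inside it. Of 16 tested members, 1 rose in C40 (Atp5a1) and 3 in I60 (Atp5a1, Atp5c1 and Atp5o), with medians of 0.19 and 0.35. The shares of all genes called higher were 11.2% in C40 and 13.9% in I60. Atp5a1, subunit alpha, had 1019.9 and 1091 CPM in PBS, 2079 and 1848 CPM in C40, and 1735 and 1693 CPM in I60. Every library of both lines lay above PBS, and I60 lay below C40 by a difference that did not pass (limma adjusted p = 0.574; C40, log2 fold change 0.89, SE 0.17, limma adjusted p = 0.0108; I60, log2 fold change 0.70, SE 0.17, limma adjusted p = 0.0215). Atp5b, subunit beta, which stands beside alpha in equal number in the head, had 2012 and 2189 CPM in PBS, 2511 and 2698 CPM in C40, and 2996 and 3127 CPM in I60. It lay above PBS without overlap in both lines and did not pass (log2 fold change 0.31, SE 0.18, limma adjusted p = 0.255 in C40; log2 fold change 0.54, SE 0.18, limma adjusted p = 0.0621 in I60). Per length, Atp5b had the highest level of all members, 1096 CPM per kb of transcript in PBS, 1359 in C40 and 1598 in I60, while Atp5a1 had 427, 795 and 694. Atp5c1, the gamma shaft, had 214 and 219 CPM in PBS, 288 and 249.9 CPM in C40, and 303 and 311 CPM in I60 and just passed in I60 (log2 fold change 0.50, SE 0.15, limma adjusted p = 0.0483). That call was lost under no filter, TMM scaling, edgeR and the replicate number as a block. Atp5o, which joins head and stalk, had 153 and 145 CPM in I60, against 86.7 and 93.7 CPM in PBS (log2 fold change 0.72, SE 0.17, limma adjusted p = 0.0196). Of its windows, 8.7% were shared with genes elsewhere and 32.8% with overlapping genes, which include another annotated entry named Atp5o. Atp5e, subunit epsilon, was the only tested member of complex V below PBS in I60 (106 and 97.5 CPM, against 119 and 139 CPM in PBS; log2 fold change -0.34, SE 0.17, limma adjusted p = 0.184). Atp5k, a small membrane subunit, had 53.4 and 59.9 CPM in PBS, 60.0 and 23.5 CPM in C40, and 73.6 and 58.0 CPM in I60, with C40 replicate 2 far below the other 5 libraries. The call of Atp5a1 in C40 was lost without PBS replicate 1 or 2 (limma adjusted p up to 0.123), and its calls in both lines with no filter on low values. The 15 members that did not pass in C40 ran between log2 fold changes of -0.58 and 0.57, and the 13 in I60 between -0.34 and 0.69. The calls of Atp5a1, Atp5c1 and Atp5o in I60 were lost without any 1 of the PBS and I60 libraries (up to 0.175, 0.222 and 0.139).

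Atp5a1, Cox8a, Ndufa1, Ndufb8 and Ndufv1 were called in both lines, Cox5b and Ndufs8 in C40 alone and 13 members in I60 alone. As both lines share the PBS libraries, the lines were also compared with each other. In I60 against C40, 0 of 74 members were called by limma, where 3.51% of all genes were called higher and 5.73% lower. At an unadjusted p below 0.05 there were 7 (5 higher and 2 lower), which is 9.46% of the members, where 22.0% of all genes were. EdgeR called 0 and DESeq2 called 2, Ndufv3 higher and Ndufa2 lower. The calls made in 1 line alone are thus not shown to differ between the lines. In this comparison, 29 members were higher in I60 without overlap and 12 lower (39.2% and 16.2%), where 24.4% and 24.4% of all genes were, and the median was 0.20 beside 0.02 over all genes. Without C40 replicate 1 the median was 0.30, with log2 fold changes of 1.45 for Atp5k, 1.18 for Cox7b and 1.35 for Ndufa5. Without C40 replicate 2 the median was 0.045. Either fit holds a single C40 library, with no spread of its own.

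Promoters of these genes are known to hold sites for NRF1, for the ETS factor GABP, for YY1 and, in some, for the receptor ERRalpha, factors that the coactivators of the PGC-1 family work with. Windows of RefSeq (GRCm38.p6, 250 bases before to 50 after the start) were found for 68 of the 85 genes and searched on both strands. The NRF1 consensus of 10 letters, 1 of them open to any base (its match on the other strand stands in capitals in Atp5o), was in 17 (25%), against 12.18% of 9215 tested genes with a window and 5.19% of all 27025 genes. The ETS letters CCGGAAG were in 16 (23.53%), against 21.39% and 9.93%. The YY1 consensus of 11 letters (in capitals in Ndufs4) was in 4 (5.88%), against 1.98% and 0.75%, and the ERRalpha letters TCAAGGTCA in 2 (2.94%), against 0.3% and 0.47%. These are matches of letters and no measure of binding. An example of each is shown, with the match in capitals: Atp5o with NRF1 on the other strand, Cox8a with 2 ETS matches on the other strand, Ndufs4 with YY1, and Sdhd with NRF1 and, on the other strand, ETS and ERRalpha matches in 1 window. Atp5o, Cox8a and Ndufs4 rose in I60, and Sdhd, with the most kinds of match among the 4, did not pass and lay lower in I60. These 4 are chosen examples, and most members with a match were not called in I60. Ndufa1, Ndufb2, Ndufb8, Ndufb11, Ndufv1, Ndufv3, Uqcr10 and Uqcrfs1 rose in I60 with no match in their windows. A link between matches and rises was not tested.
Atp5o promoter (chr16:91931581-91931880, minus strand): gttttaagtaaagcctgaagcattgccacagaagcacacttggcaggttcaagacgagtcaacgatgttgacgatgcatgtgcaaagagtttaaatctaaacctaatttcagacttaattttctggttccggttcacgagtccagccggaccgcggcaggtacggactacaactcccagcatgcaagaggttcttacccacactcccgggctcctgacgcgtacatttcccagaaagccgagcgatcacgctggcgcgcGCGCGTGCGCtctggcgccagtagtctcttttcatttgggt
Cox8a promoter (chr19:7217567-7217866, minus strand): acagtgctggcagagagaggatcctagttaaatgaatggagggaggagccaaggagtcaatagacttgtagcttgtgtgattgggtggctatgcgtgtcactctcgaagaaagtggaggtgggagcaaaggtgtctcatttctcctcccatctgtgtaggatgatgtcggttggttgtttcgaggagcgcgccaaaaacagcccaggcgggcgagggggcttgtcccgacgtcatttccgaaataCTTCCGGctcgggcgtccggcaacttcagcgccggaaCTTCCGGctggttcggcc
Ndufs4 promoter (chr13:114388045-114388344, minus strand): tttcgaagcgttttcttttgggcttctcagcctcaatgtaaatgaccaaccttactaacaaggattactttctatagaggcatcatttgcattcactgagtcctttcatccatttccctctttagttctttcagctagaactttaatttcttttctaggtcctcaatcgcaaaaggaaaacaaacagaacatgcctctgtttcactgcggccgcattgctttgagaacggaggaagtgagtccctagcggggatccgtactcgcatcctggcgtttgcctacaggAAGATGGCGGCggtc
Sdhd promoter (chr9:50603800-50604099, minus strand): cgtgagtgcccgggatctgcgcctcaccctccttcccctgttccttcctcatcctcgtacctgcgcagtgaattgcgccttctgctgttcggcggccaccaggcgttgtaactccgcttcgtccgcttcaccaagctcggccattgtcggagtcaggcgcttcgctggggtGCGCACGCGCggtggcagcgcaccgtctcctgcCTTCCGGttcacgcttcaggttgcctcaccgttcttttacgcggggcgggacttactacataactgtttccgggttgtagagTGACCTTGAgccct

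Among 16 tested regulators of mitochondrial biogenesis, in C40 1 rose and 1 fell, and in I60 4 rose and 0 fell, with medians of 0.05 and 0.09. Of all genes tested, 11.2% were called higher and 9.02% lower in C40, and 13.9% and 13.1% in I60. Ppargc1b, the coactivator PGC-1beta, had 0.350 and 0.415 CPM in PBS, 8.81 and 7.67 CPM in C40, and 13.1 and 9.65 CPM in I60. It rose in both lines (log2 fold change 3.31, limma adjusted p = 0.000304 in C40; 3.74, limma adjusted p = 8.1e-05 in I60), with calls that held without any single library. Its relative Ppargc1a was not tested (0.894 CPM or less in each library). Esrra, which encodes ERRalpha, had 39.2 and 49.2 CPM in PBS, 64.6 and 121 CPM in C40, and 87.5 and 89.5 CPM in I60, with C40 replicates far apart (log2 fold change 0.998 in C40, with limma adjusted p = 0.0566, and 1.002 in I60, with limma adjusted p = 0.0465). Pprc1, a further coactivator of that family, and Polrmt, the mitochondrial RNA polymerase, also rose in I60 (0.70 and 0.84), and Gabpb2 fell in C40 by 0.61. The calls of Esrra, Pprc1, Polrmt and Gabpb2 were lost with some libraries left out (limma adjusted p up to 0.252, 0.204, 0.112 and 0.273). These were any 1 of the PBS and I60 libraries for Esrra and Pprc1, PBS replicate 1 or I60 replicate 1 for Polrmt, and any library but C40 replicate 1 for Gabpb2. RNA of the factors Nrf1, Gabpa, Yy1 and Tfam did not pass in either line (log2 fold changes between -0.51 and 0.23).

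Further mitochondrial lists were read from the same fit, and no list was tested as a set. Their counts stand beside 11.2% of all genes called higher and 9.02% lower in C40, and 13.9% and 13.1% in I60. Of 45 tested assembly factors, which build the complexes without staying in them, in C40 3 rose and 0 fell, and in I60 3 rose and 2 fell (medians 0.07 and -0.01). Coa7, an assembly factor of complex IV, had 17.6 and 14.3 CPM in PBS, 47.9 and 33.6 CPM in C40, and 174 and 141 CPM in I60, and was also called higher in I60 than in C40 (log2 fold change 1.95, limma adjusted p = 0.00316). Surf1, another of complex IV, rose to 62.7 and 60.8 CPM in I60, against 22.5 and 24.7 CPM in PBS. Of 17 genes for ubiquinone synthesis, cytochrome c and electron transfer flavoprotein, in C40 3 rose and 0 fell, and in I60 4 rose and 1 fell (medians 0.10 and 0.19). Coq6, a hydroxylase of ubiquinone synthesis, had 6.69 and 6.95 CPM in PBS, 24.2 and 21.7 CPM in C40, and 22.6 and 22.8 CPM in I60 (limma adjusted p = 0.00192 in C40 and 0.0013 in I60). Of 16 genes of the citric acid cycle and pyruvate dehydrogenase, in C40 1 rose and 0 fell, and in I60 2 rose and 1 fell (medians 0.30 and 0.26). The subunits of isocitrate dehydrogenase parted there: Idh3g had 209 and 218 CPM in I60, against 107 and 113 CPM in PBS, and rose, while Idh3a had 148 and 116 CPM, against 250 and 221 CPM, and fell (log2 fold changes 0.95 and -0.84; limma adjusted p = 0.00321 and 0.0226). Of 76 mitochondrial ribosomal proteins, in C40 4 rose and 2 fell, and in I60 7 rose and 1 fell (medians 0.07 and 0.16). Mrpl37 had 66.0 and 67.6 CPM in PBS, 164 and 136 CPM in C40, and 1007 and 781 CPM in I60, a log2 fold change of 3.72 in I60 (limma adjusted p = 2.17e-05). The call of Idh3a was lost without any 1 of the PBS and I60 libraries (limma adjusted p up to 0.16), and those of Coa7 and Mrpl37 in C40 without PBS replicate 1 or 2 (up to 0.0781 and 0.0618).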

How the data were processed

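Total RNA of 6 Py2T libraries (2 per group) was sequenced as single reads of 81 bases after ribosomal RNA depletion, per the labels' protocols, which describe 2 differing depletion kits. STAR and mm10 are named in the submitters' processing notes; the sources used here give no versions, read counter, annotation or strand setting. The authors deposited CPM, 1 row per Entrez gene (24454 rows, of which RefSeq matched 24374 to a symbol and GENCODE 7 more). All values were whole multiples of 1 read (100% within 0.01), so reads were recovered for edgeR 4.0.16 and DESeq2 1.42.0, used as alternatives.

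Under R 4.3.3, limma 3.58.1 (trended variance) tested log2(CPM + 0.5) (two-sided) of genes with at least 1 CPM in 2 libraries in 1 model of 3 groups (3 residual degrees of freedom), with Benjamini-Hochberg adjustment over 11524 genes and calls at an adjusted p below 0.05. The code was tested on simulated reads, with 67 genes changed by 1.5 times and 67 by 2 times. Against PBS, 0% of the 1.5-fold changes were called, and 10.4% (C40) and 19.4% (I60) of the 2-fold changes. Between I60 and C40 these were 4.5% and 9%. A member that did not pass is thus not shown to be unchanged. Members and lists were chosen with earlier results of these data known. Values per library are given for 19 fixed members and, per comparison, the 8 largest calls whose higher group reached 5 CPM and whose replicates do not overlap, and isoform families are described by level; other members are named where their complex is described. Copies and motifs were searched in Python 3.11.15. Some genes are not reported here.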

Additional observations from a re-analysis of the deposited data

How the results depend on the processing

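Counts of members called higher in C40 against PBS were 7 as reported, 4 with no filter on low values, 12 with DESeq2 and 0 to 9 with 1 library left out; calls lower were 0, and 0 to 3 with 1 library left out. In I60 against PBS they were 18, 28 with DESeq2 and 1 to 32 with 1 library left out, and calls lower were 0 in each setting. In I60 against C40 they were 0, with 1 higher and 1 lower under DESeq2 and 0 to 11 higher with 1 library left out. DESeq2 also called more of all genes higher than limma did in each comparison. In C40 against PBS it called 15.7% of all genes higher, beside 16.2% of the members. The median log2 fold change of the members with 1 library left out lay between 0.16 and 0.40 in C40 against PBS and between 0.045 and 0.30 in I60 against C40. Pseudocounts of 0.1 and 1, TMM scaling and edgeR moved none of these counts by more than 1.5 times, and no call and no median turned its direction (0 reversed). Among the named members, 4 estimates that did not pass changed sign with 1 library left out: Sdhb in I60 against PBS (-0.029, and -0.078 to 0.021 with 1 library left out), Sdhd in C40 against PBS (0.088, and -0.147 to 0.322), Cox8a in I60 against C40 (-0.148, and -0.316 to 0.021) and Ndufs8 in I60 against C40 (-0.089, and -0.193 to 0.015). The library was PBS replicate 2 or I60 replicate 2 for Sdhb, with 0.014 and 0.021, and C40 replicate 1 for the others. With the replicate number as a block, 7, 18 and 0 members were called higher and 0 lower in the 3 comparisons; among the named calls Atp5c1 in I60 was lost, and Atp5g3 passed. Any 2 groups share only 2 replicate numbers, and the deviations of same-numbered libraries correlated at 0.15 (C40 and PBS), 0.11 (I60 and PBS) and 0.44 (I60 and C40) across genes, which are not independent, so the block is not taken as a pairing. Apart from what leaving out a library shows by its construction (fewer libraries), the cause of these shifts was not tested. The 11 members that did not reach 1 CPM in 2 libraries were not tested.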
